A study of Mus musculus with 2 samples.

Results

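Choroidal macrophages were examined in choroid with attached RPE (retinal pigment epithelium) from 8-week-old mice of the outbred ICR strain, wild type and untreated. The study has 1 group of 2 droplet libraries, each of tissue pooled from 1 male and 1 female. A macrophage was a cell with at least 1000 unique molecular identifiers (UMIs, the count of captured RNA molecules), no fewer than 500 genes and a mitochondrial share of UMIs of up to 20% that met 4 limits. C1qa, C1qb and C1qc together had at least 5 UMIs, and Csf1r, Mrc1, Adgre1 and Cd68 together had at least 3. S100a8 and S100a9 together stayed under 10 UMIs, Cd79a and Cd3e were at 0, and Cdh5, Sox10 and Rpe65 together had at most 2. These limits gave 1279 macrophages of 21898 kept cells, 404 of 8497 cells in library 1 and 875 of 13401 in library 2. They made up 4.75% of the cells in library 1 (95% exact Clopper-Pearson interval 4.31% to 5.23%) and 6.53% in library 2, a mean of 5.64% ± 1.25 (SD, n = 2). The cells were thus chosen by the counts of these genes, so the levels of these genes below are a description and were not tested.

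Macrophages of the choroid are phagocytes of the vessel-rich layer that supplies the outer retina, and they lie along vessels and beneath the RPE. Across tissues, macrophages take up debris with scavenger receptors such as the mannose receptor Mrc1, make the C1q chains that start the classical complement pathway, and depend on the receptor Csf1r for survival. A vessel-associated form with Lyve1, a hyaluronan receptor, and Folr2, a folate receptor, and a form with high MHC class II, which presents peptides to CD4+ T cells, have been described in several mouse organs. MHC class II is a pair of chains (H2-Aa with H2-Ab1, and H2-Ea with H2-Eb1) that is held by the invariant chain Cd74, loaded with peptide by H2-DM and restrained by H2-O, and its genes are switched on by the coactivator Ciita.

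The libraries held 91741168 and 149570817 UMIs, and kept cells had a median of 7842 and 8253 UMIs. Macrophages had a median of 9291 and 8959 UMIs, against 7802 and 8215 in all other cells. Here and below, all other cells are the 7909 and 12277 kept cells not gated as macrophages, dendritic cells, lymphocytes or S100a8-S100a9 myeloid cells. The immune cells of those gates are thus not part of these comparisons. The libraries shared 31 cell barcodes, which is 0.365% and 0.231% of the barcodes kept in each. Barcodes with at most 100 UMIs, a measure of free RNA in the droplets, held 4.90% and 4.11% of all UMIs. The doublet caller Scrublet marked 19 of the 404 and 105 of the 875 macrophages, and these cells were kept in the values below unless stated. Macrophages also carried RNA of other cells: the summed level of 6 fibroblast markers was 1794 and 2622 CPM (UMIs scaled to a common library total) of raw UMIs, with all 6 detected in both libraries, and its part in the results was not tested beyond the values given beside them. No value can be tied to a single mouse. The SD of a share measures the spread between these 2 libraries, and exact intervals measure counting error within a library. The SE and p-values of tests with library as a block measure how far a difference between groups varies from library to library.

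The cells lay well inside most limits of the rule. The sum of C1qa, C1qb and C1qc reached a median of 80 UMIs in the macrophages of library 1 and 79 in library 2, far from the limit of 5. Just inside that limit, 1 and 2 macrophages had exactly 5 UMIs of these genes, and just outside it 2 and 1 cells that met the other limits had 4. For the receptors the edge was fuller, with 19 and 26 macrophages at exactly 3 UMIs and 15 and 21 cells at 2 outside. The limit on vessel, Schwann or melanocyte and RPE genes removed 21 and 48 cells, the limit on lymphocyte genes 1 and 6, and the limit on S100a8 and S100a9 0 and 1. C1qa stood at 3757 and 3235 CPM in macrophages, against 14.2 and 19.1 CPM in all other cells. Csf1r stood at 480 and 541 CPM in macrophages and 11.8 and 13.9 CPM in all other cells.

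Beyond the genes of the rule, the genes that stood furthest above all other cells included several secreted signals. Il10, an anti-inflammatory cytokine, had 593 and 415 CPM in macrophages, against 1.09 and 1.95 CPM in all other cells, a ratio of the means of 331. Tnf, an inflammatory cytokine, had 1178 and 1195 CPM in macrophages and 4.56 and 6.39 CPM in all other cells. The chemokines Ccl3 and Ccl4, which draw monocytes and T cells, had ratios of 228 and 231, and Ccl12, a monocyte chemokine, had 309. C3ar1, the receptor for the complement fragment C3a, had 498 and 538 CPM in macrophages, against 1.81 and 2.69 CPM in all other cells. Ms4a7 and Slamf7, both surface proteins of macrophages, completed the leading 10 together with Mrc1 and C1qb of the rule. All of these genes were high in both libraries, but Ccl12 and Ccl4 were higher in library 1 than in library 2, with Ccl12 at 1201 CPM in library 1 and 253 CPM in library 2. Shares of cells pointed the same way. At 2000 UMIs per cell, Tnf was seen in 57.9% and 69.1% of macrophages, against 0.337% and 0.651% of all other cells. Cxcl2, a neutrophil chemokine, was seen in 87.2% and 93.2% of macrophages and in 10.7% and 8.86% of all other cells, and its median was 27 and 28 of 2000 UMIs. Cells were released with collagenase for 2 h and trypsin for 30 min, per the labels, and the part of the digest in these cytokine levels was not tested.

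MHC class II transcripts ranged from none to 143 UMIs in single macrophages of equal depth. To compare cells at 1 depth, each macrophage was thinned at random to 2000 UMIs, which left out 14 and 28 shallower cells and kept 390 and 847. The sum of H2-Aa, H2-Ab1 and H2-Eb1 had a median of 9 UMIs in library 1 and 11 in library 2, a lower quartile of 1 in both, an upper quartile of 28 and 27, and a maximum of 127 and 143. It was 0 in 75 of 390 macrophages of library 1 and in 156 of 847 of library 2. In classes that widen with the count, 49 and 95 macrophages had 1 to 2 UMIs, 27 and 63 had 3 to 4, 45 and 80 had 5 to 9, and 63 and 196 had 20 to 39. With a limit of 5 UMIs, 239 of 390 macrophages (61.3%, interval 56.2% to 66.1%) were MHC class II-high in library 1, and 533 of 847 (62.9%, interval 59.6% to 66.2%) in library 2. The mean was 62.1% ± 1.16 (SD, n = 2), so the libraries differed by less than the counting error of either.

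The single genes of the presentation pathway were unequal in detection. Cd74 was found in 90% and 89.5% of thinned macrophages, with a median of 13 and 11 UMIs, against 2.98% and 4.59% of all other cells. H2-Aa was found in 70.3% and 71.5%, H2-Ab1 in 72.3% and 71.2%, and H2-Eb1 in 67.4% and 71.5%. The loading factors were sparser, with H2-DMa in 32.6% and 33.1% and H2-DMb1 in 21.0% and 20.4%. Ciita was found in 6.67% and 8.50% of macrophages and in 0.130% and 0.175% of all other cells. H2-Oa, a chain of the restraining H2-O, was found in 0 of 390 macrophages of library 1, which allows a share of up to 0.769%, and in 0.590% of library 2. Across cells, H2-Aa went with its partner H2-Ab1 (Spearman's rho 0.88 and 0.85 within each library, n = 390 and 847 cells that share a library and a depth) and with Cd74 (0.89 and 0.87). 

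**Figure D1:**
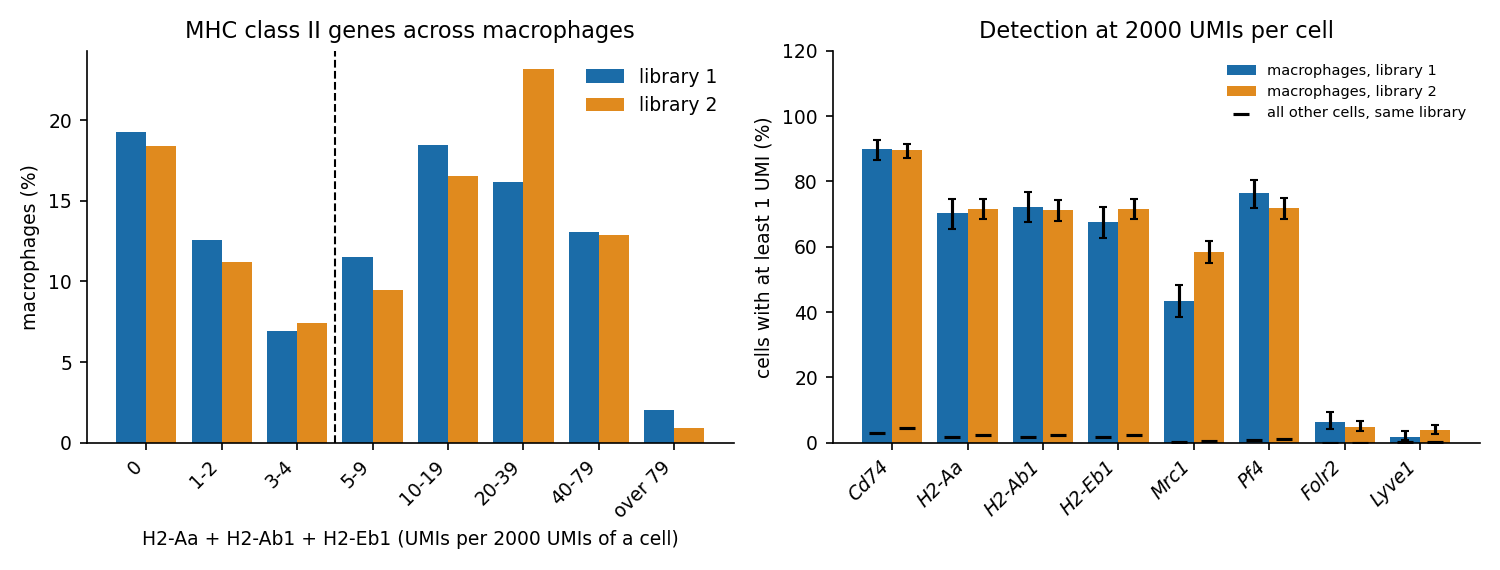
Spread of MHC class II, Mrc1, Lyve1 and Folr2 between macrophages, each cell thinned to 2000 UMIs (390 cells in library 1, 847 in library 2). Left, percent of macrophages by the summed UMIs of H2-Aa, H2-Ab1 and H2-Eb1, in classes of unequal width, with the limit of 5 UMIs dashed. Right, percent of macrophages with at least 1 UMI of each gene with exact 95% intervals. Black dashes show all other cells of the library, without gated dendritic cells, lymphocytes and S100a8-S100a9 myeloid cells. Cd74 reached 90% and 89.5% of macrophages, while Lyve1 reached 1.79% and 4.01%.

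The promoters of the MHC class II genes carry a shared upstream module in which the Y box, an inverted CCAAT sequence bound by NF-Y, lies beside the X box at which the complex joined by Ciita assembles. The stretches of 150 bases just before the start sites of 3 of these genes are shown because H2-Aa and H2-Eb1 define the MHC class II-high cells and H2-DMb1 moved with them in the test below. They are from RefSeq on GRCm38.p6, read 5′ to 3′ along each gene, with the letters ATTGG or their reverse complement CCAAT in capitals. H2-Aa lies on the minus strand at chr17:34287824-34287973, H2-Eb1 on the plus strand at chr17:34305717-34305866 and H2-DMb1 on the plus strand at chr17:34153041-34153190.
H2-Aa: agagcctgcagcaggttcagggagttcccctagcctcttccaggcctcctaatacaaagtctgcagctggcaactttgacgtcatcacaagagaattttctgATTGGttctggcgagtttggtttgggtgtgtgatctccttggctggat
H2-Eb1: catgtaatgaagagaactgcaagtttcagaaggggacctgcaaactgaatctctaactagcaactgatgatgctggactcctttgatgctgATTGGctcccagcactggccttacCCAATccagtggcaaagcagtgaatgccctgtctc
H2-DMb1: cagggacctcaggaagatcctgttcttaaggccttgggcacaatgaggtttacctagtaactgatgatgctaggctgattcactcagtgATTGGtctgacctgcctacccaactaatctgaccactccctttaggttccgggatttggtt
In the 250 bases before the start site, 8 of the 11 listed MHC class II genes had an entry, with 9 windows in all because H2-DMa has a pair of start sites. Of these 9 windows 8 held ATTGG on either strand, which 33.8% of 32851 such windows across the genome hold. The longer CTGATTGG, which contains ATTGG, was in 4 of the 9 and in 3.83% of all windows. These are matches of letters and not measured binding.

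Mrc1 was common among macrophages and Lyve1 and Folr2 were rare. Mrc1, on chr2:14229392-14332057 (GRCm38, plus strand), was found at 2000 UMIs in 43.3% of macrophages of library 1 and 58.4% of library 2, with at most 10 and 14 UMIs in a cell. Its share differed between the libraries beyond counting error. Folr2, on chr7:101839988-101857194 (minus strand), was found in 25 of 390 (6.41%) and 41 of 847 macrophages (4.84%). Lyve1, on chr7:110850607-110863239 (minus strand), was found in 7 of 390 (1.79%) and 34 of 847 (4.01%). In all other cells Folr2 was seen in 0.05% and 0.03% and Lyve1 in 0.12% and 0.13%. In free RNA Folr2 had 2.89 and 4.88 CPM and Lyve1 had 0.667 and 2.60 CPM, and the part of free RNA in these shares was not tested. Without thinning, Folr2 was seen in 14.9% and 10.1% of macrophages and Lyve1 in 6.19% and 6.40%, which shows how far depth limits these shares. At least 1 UMI of either gene marked 27 of 390 macrophages as Lyve1/Folr2-positive in library 1 (6.92%, interval 4.61% to 9.91%) and 55 of 847 in library 2 (6.49%, interval 4.93% to 8.37%). Of these, 5 and 20 cells had both genes. Negative here means not detected at this depth.

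Lyve1 or Folr2 and high MHC class II seldom met in a cell. Among Lyve1/Folr2-positive macrophages 4 of 27 (14.8%, interval 4.19% to 33.7%) were MHC class II-high in library 1 and 7 of 55 (12.7%) in library 2, against 64.7% and 66.4% of the negative macrophages. The intervals of the positive and negative cells did not overlap in either library. The macrophages thus fell into a Lyve1/Folr2-positive state low in MHC class II (23 and 48 cells), an MHC class II-high state without either gene (235 and 526 cells), a state low for both (128 and 266 cells) and a state with both (4 and 7 cells). The last was too small for a sum and was left out of the tests.

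MHC class II genes as a group were lower in Lyve1/Folr2-positive macrophages than in all negative ones. In a fit of this split alone, without MHC class II in the grouping, 7 of the 8 listed MHC class II genes that could be tested fell and none rose, when 4.01% of the 9186 genes tested fell and 4.44% rose. H2-Eb1 had 299 and 344 CPM in positive macrophages, against 3743 and 2742 CPM in negative ones (log2 fold change -3.30, SE 0.16, edgeR adjusted p = 3.4e-06). H2-Aa had 423 and 479 CPM in positive cells and 3449 and 2445 CPM in negative cells (log2 fold change -2.67, SE 0.17, edgeR adjusted p = 2.3e-05). Cd74 had 2232 and 1419 CPM in positive cells and 10470.3 and 6864 CPM in negative cells, and its groups did not overlap either. This fit has 4 sums and 1 residual degree of freedom. In free RNA, H2-Aa had 284 and 266 CPM, H2-Eb1 had 311 and 329 CPM and Cd74 had 925 and 750 CPM. These are shares of the free RNA itself and not the amount that free RNA adds to a cell. The part of free RNA in the levels of positive cells was not tested.

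The differences between states were then tested on counts summed per library and state, in 1 fit of 6 sums with library as a block and 2 residual degrees of freedom. Calls needed an adjusted p under 0.05 and a change of 0.5 or more on the log2 scale. Lyve1/Folr2-positive macrophages and MHC class II-high macrophages were each set against the macrophages low for both, so the 2 comparisons share their control cells. The genes that made the states (Lyve1, Folr2, H2-Aa, H2-Ab1 and H2-Eb1) were not tested. Sums of 23 to 526 cells were given 1 spread, and with equal cell numbers in every state the calls of the Lyve1/Folr2 comparison came to 210 higher and 162 lower, against 438 and 367. Of 9399 genes tested, 4.66% were higher and 3.90% lower in Lyve1/Folr2-positive macrophages. Without the library block only 51 genes were higher and 57 lower.

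The scavenger and perivascular genes rose together with Lyve1 and Folr2. Of the 21 genes of this list besides Mrc1, 19 could be tested, 15 were higher and none was lower, with a median log2 fold change of 1.88, beside -0.09 over all genes tested. The list was drawn from genes known to accompany Lyve1 and Folr2, so its direction is no independent evidence. Mrc1 had 1270.2 and 1911 CPM in Lyve1/Folr2-positive macrophages, against 489 and 659 CPM in those low for both, and is given as values only because it is in the macrophage rule. It was found in 20 of 23 and 45 of 48 positive cells, against 67 of 128 and 153 of 266 cells low for both. Cd163, the scavenger receptor for haemoglobin bound to haptoglobin, had 357 and 634 CPM in positive cells and 94.6 and 72.0 CPM in cells low for both (log2 2.62, SE 0.28, edgeR adjusted p = 0.0011). Positive cells of both libraries lay above both control values for each of these genes.

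Several of the largest changes were in genes that macrophages low for both nearly lacked. Fcna, a ficolin of the lectin complement pathway, had 254 and 253 CPM in Lyve1/Folr2-positive macrophages and 11.6 and 2.18 CPM in those low for both (log2 5.64, SE 0.47, edgeR adjusted p = 0.00034). Cd209d, a C-type lectin, had 75.8 and 83.0 CPM in positive cells, against 2.33 and 1.09 CPM. Timd4, a receptor for phosphatidylserine on dying cells, had 98.0 and 72.4 CPM in positive cells, against 5.43 and 2.45 CPM (log2 4.57, SE 0.40). Vsig4, a complement receptor that binds C3b, had 49.0 and 76.6 CPM in positive cells, against 0 and 2.18 CPM. Timd4 and Vsig4 mark long-lived resident macrophages in other mouse tissues. F13a1, the A chain of coagulation factor XIII, and Cbr2, a carbonyl reductase, were picked after their values were seen: F13a1 had 1003 and 1134 CPM in positive cells, against 140.3 and 57.2 CPM in cells low for both, and Cbr2 had 740 and 313 CPM, against 136 and 33.5 CPM. Retnla, a secreted protein of alternatively activated macrophages, had 138 and 560 CPM in positive cells and 0 in cells low for both, at least 526-fold higher against a floor of 3 counts over that group. It rested on few cells, 1 of 23 and 8 of 48. The call for Retnla was lost with thinning to 1000 UMIs and an MHC class II limit of 3 UMIs (log2 fold change of Retnla 3.92), with positivity at 2 UMIs (3.36) and with that limit alone (6.50).

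Selenop, a carrier of selenium, had 2959 and 2911 CPM in Lyve1/Folr2-positive macrophages and 1132 and 811 CPM in those low for both (log2 1.62, SE 0.12, edgeR adjusted p = 4.9e-06). Pf4, a chemokine of platelets and resident macrophages, had 3953 and 2420 CPM in positive cells, against 2513 and 1284 CPM (log2 0.78, SE 0.10), and fell under the fold limit with another thinning seed (0.49) and with positivity at 2 UMIs (0.41). Ninj1, a mediator of membrane rupture, had 1007 and 581 CPM in positive cells and 1183 and 539 CPM in cells low for both, and did not pass the test.

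Some iron, complement and Fc receptor genes were also higher. Of 10 tested genes of iron and haem handling, 5 rose and none fell, with a median log2 fold change of 0.81: Cd163, the transferrin receptor Tfrc, the haem oxygenase Hmox1, the biliverdin reductase Blvrb and the prostaglandin dehydrogenase Hpgd, which degrades prostaglandins and not haem. Hmox1 had 2661 and 2156 CPM in Lyve1/Folr2-positive macrophages, against 978 and 451 CPM in those low for both (log2 1.85, SE 0.18, edgeR adjusted p = 0.00044), and was not called with equal cell numbers or an MHC class II limit of 3 UMIs. The ferritin chains Fth1 and Ftl1 were not called. Of 16 tested complement genes besides the C1q chains, 9 rose and none fell (median 0.73). The count higher was 6 of 16 with DESeq2 and also 6 of 16 without Scrublet doublets. It was 7 of 14 without cells of fibroblast or melanocyte markers and 5 of 12 with equal cell numbers, and none fell in these fits. C4b had 107 and 217 CPM in positive cells and 41.9 and 33.0 CPM in cells low for both, and properdin, Cfp, had 241 and 128 CPM, against 52.0 and 30.0 CPM. C1qa, a gene of the rule, had 3476 and 2998 CPM in positive cells and 3137 and 2480.2 CPM in cells low for both. The inhibitory Fc receptor Fcgr2b and the activating Fcgr3 were the 2 called of 10 genes of costimulation and antigen uptake, with log2 fold changes of 1.27 and 1.01, while Fcgr1 (0.18) and Fcgr4 (-1.78) were not called. Without cells of fibroblast or melanocyte markers 2 genes of that list were higher and 4 lower.

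**Figure D2:**
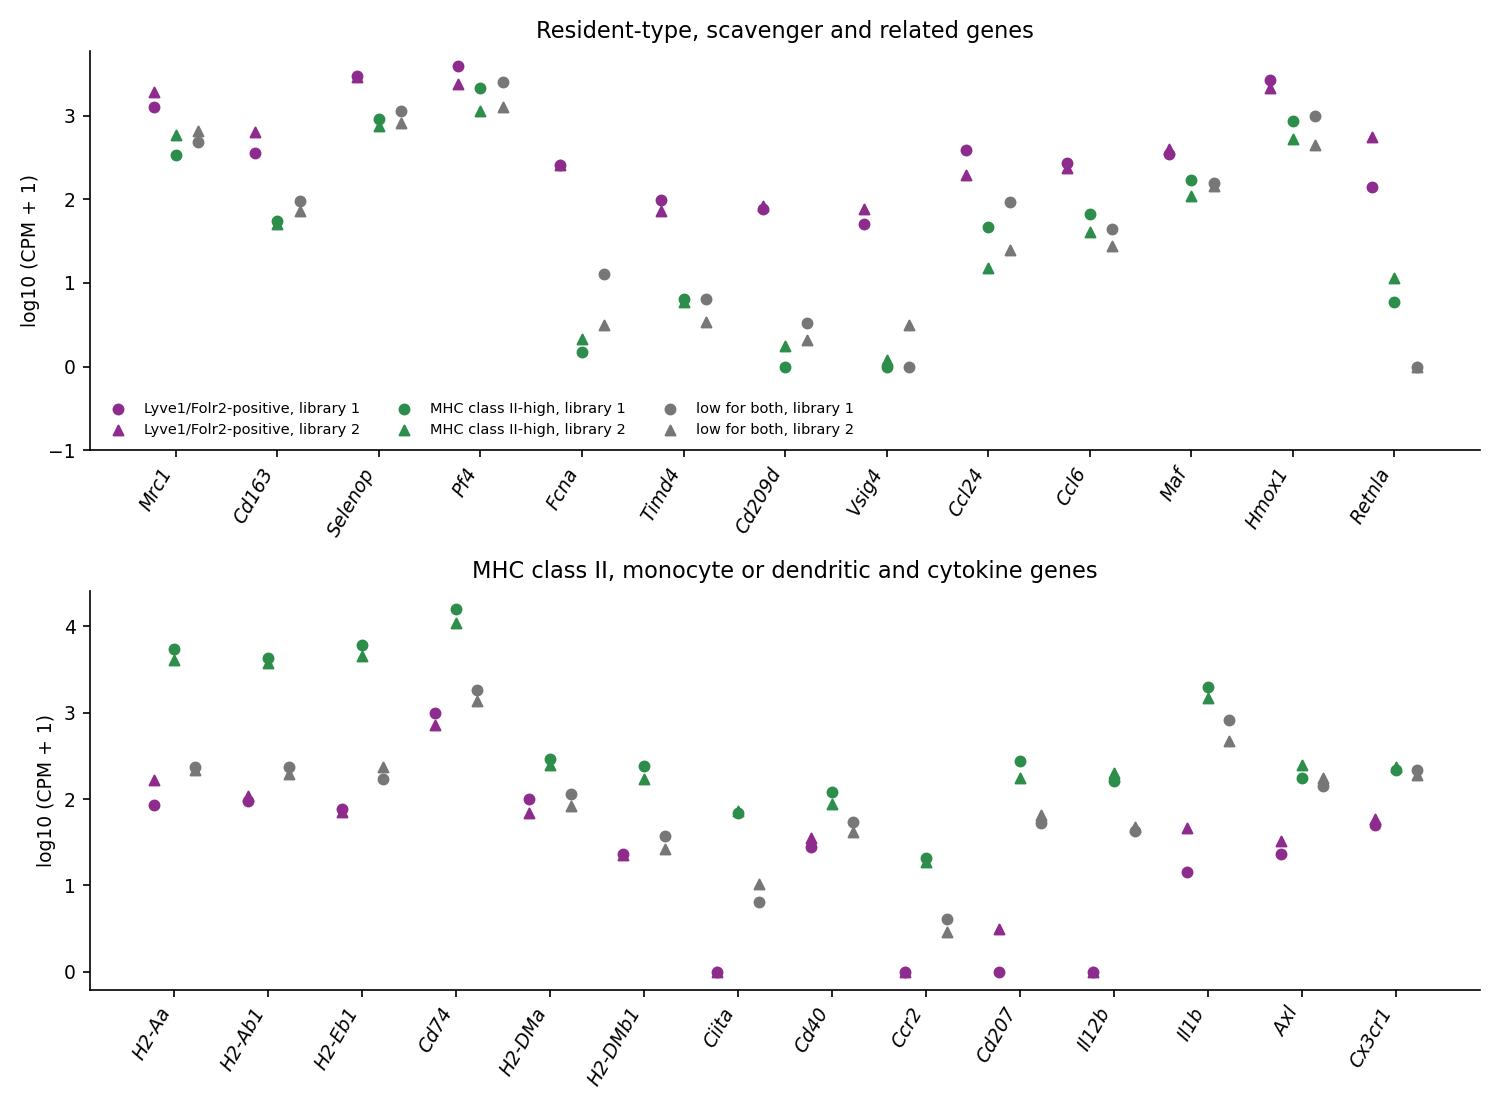
Levels of selected genes in 3 macrophage states, as log10 of CPM plus 1, circles for library 1 and triangles for library 2. Lyve1/Folr2-positive macrophages (purple) lay above both other states for Mrc1, Cd163, Selenop, Fcna and Timd4 in both libraries, and MHC class II-high macrophages (green) lay above both for Cd74, Ciita and Ccr2.

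Chemokine genes moved in both directions. Of 23 tested, 7 were called higher and 4 lower in Lyve1/Folr2-positive macrophages, with a median log2 fold change of 0.44. Ccl6 had 267 and 234 CPM in positive macrophages, against 43.4 and 26.4 CPM in those low for both (log2 2.91, SE 0.21, edgeR adjusted p = 3.5e-06). Ccl9, another chemokine of the same mouse cluster, had 299 and 317 CPM in positive cells and 85.3 and 48.0 CPM in cells low for both. Ccl24, an eosinophil chemokine, had 388 and 196 CPM in positive cells, against 93.0 and 23.4 CPM, and lost its call with equal cell numbers. Cx3cr1, the fractalkine receptor, fell, with 49.0 and 57.5 CPM in positive cells and 218 and 187 CPM in cells low for both (log2 -1.89, SE 0.22, edgeR adjusted p = 0.00015). Of the 7 called higher, the abundant Ccl4 and Cxcl2 (log2 0.54 and 0.67) turned below 0 with positivity at 2 UMIs (-0.44 and -0.16), so no direction is given for them.

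Interleukin-1 genes were lower in Lyve1/Folr2-positive macrophages. Il1b had 13.4 and 44.7 CPM in positive cells, against 832 and 471 CPM in those low for both (log2 -4.15, SE 0.48, edgeR adjusted p = 0.018). At 2000 UMIs it was found in 0 of 23 and 1 of 48 positive cells, in 109 of 235 and 220 of 526 MHC class II-high cells, and in 32 of 128 and 70 of 266 cells low for both. The fold change of Il1b kept its sign under every alternative run, and its call was lost in the fit of this split alone (log2 -3.94) and with an MHC class II limit of 3 UMIs (-2.88). Il1a fell (log2 -1.82), and Il12b, a chain of interleukins 12 and 23, was at 0 of all UMIs in positive cells, at least 9.60-fold lower, a call lost with equal cell numbers. Tnf had 1021 and 951 CPM in positive cells and 1083 and 953 CPM in cells low for both (log2 -0.05, SE 0.13, edgeR adjusted p = 0.87), and the groups overlapped. Of 14 tested cytokines, 3 fell and 1, Il6, was called higher, with a median log2 fold change of -0.03. Il6 rested on 52 UMIs in positive cells and turned below 0 without Scrublet doublets and with thinning to 1000 UMIs and an MHC class II limit of 3 UMIs, so no direction is given for it.

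Phagocytic genes moved in both directions. Of 31 tested genes of lysosome and phagocytosis besides Cd68, 7 rose and 5 fell in Lyve1/Folr2-positive macrophages (median log2 fold change -0.06). The counts were 5 higher and 9 lower without cells of fibroblast or melanocyte markers, and 6 higher and 8 lower without Scrublet doublets. Cd36, a fatty acid and lipoprotein receptor, had 383 and 517 CPM in positive cells, against 176 and 141 CPM in those low for both (log2 1.53, SE 0.19, edgeR adjusted p = 0.00025). Grn, the progranulin gene, rose by less (log2 0.89, SE 0.14). Axl, a receptor of the growth arrest protein Gas6, had 22.3 and 31.9 CPM in positive cells and 142 and 175 CPM in cells low for both (log2 -2.54, SE 0.25, edgeR adjusted p = 3.2e-05). Apoe, the most abundant of the list, had 9961 and 8895 CPM in positive cells, against 12437 and 8157 CPM, and did not pass the test. Dcstamp, a membrane protein needed for the fusion of osteoclasts and giant cells, had no UMI in positive cells, against 105 and 161 CPM in cells low for both, at least 29.1-fold lower.

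**Figure D3:**
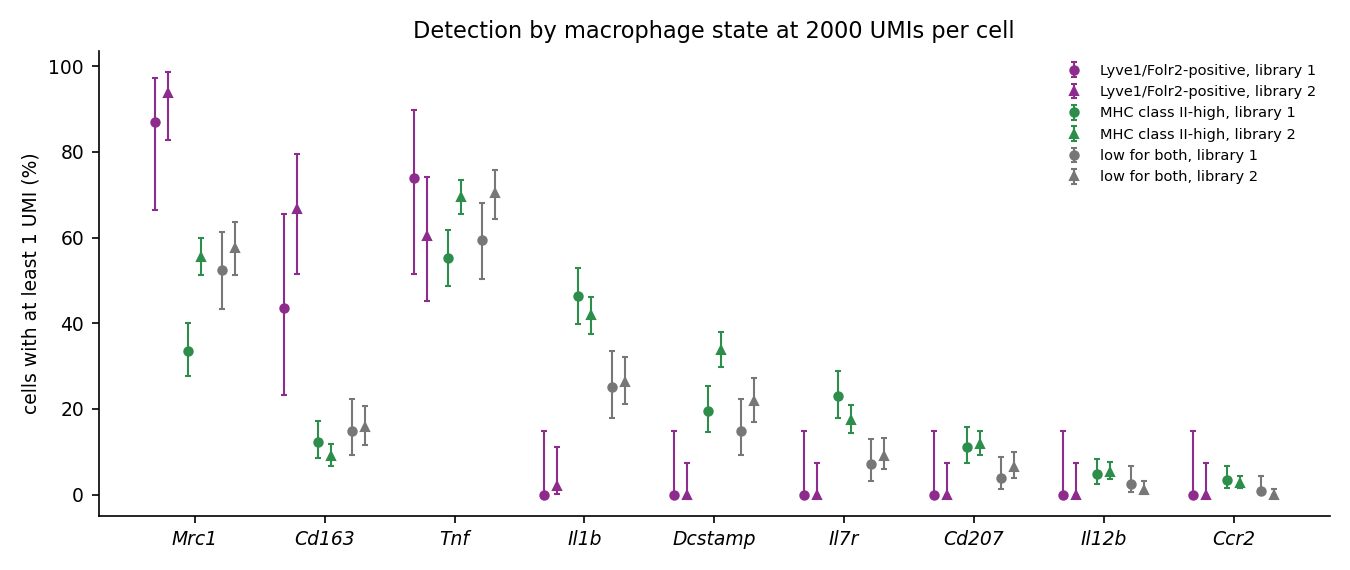
Percent of macrophages of each state with at least 1 UMI of the named gene, each cell thinned to 2000 UMIs, with exact 95% intervals. Mrc1 was found in 87.0% and 93.8% of Lyve1/Folr2-positive cells and Il1b in 0% and 2.08%, while Tnf was found in all 3 states with overlapping intervals.

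Regulators and growth signals of the Lyve1/Folr2-positive state followed. Of 19 tested transcription factors, 4 rose and 5 fell. Maf, a factor of resident macrophages, had 343 and 396 CPM in positive macrophages, against 155 and 142 CPM in those low for both (log2 1.34, SE 0.20, edgeR adjusted p = 0.0013). Irf4 rose (log2 1.93, SE 0.28), and Runx3, a factor also used by dendritic cells and T cells, fell (log2 -1.90, SE 0.38). Among 18 immediate early and stress genes 4 rose and 1 fell, led by Klf4, a zinc finger factor, with 611 and 485 CPM in positive cells and 138 and 187 CPM in cells low for both. Of 16 interferon-stimulated genes 4 rose and 1, Irf1, fell, with a median log2 fold change of -0.38, beside -0.09 over all genes tested. Oasl1, which rose by most of these, had 1047 and 579 CPM in positive cells, against 290.0 and 123 CPM (log2 2.04, SE 0.16, edgeR adjusted p = 4.9e-06). The interferon list had 2 genes higher and 2 lower without cells of fibroblast or melanocyte markers. Its median log2 fold change was then 0.14, so no direction is given for the list. Of 16 growth factors 4 rose and 3 fell: Hbegf, a ligand of the EGF receptor, had 481 and 596 CPM in positive cells, against 234 and 207 CPM, and Igf1 had 183 and 147 CPM, against 89.2 and 60.5 CPM. Of 12 cell cycle genes 5 fell and 1 rose. Stmn1, a microtubule regulator of dividing cells, had 44.6 and 57.5 CPM in positive cells and 257 and 260.3 CPM in cells low for both, and Top2a had 1 UMI in all positive cells.

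Fibroblast and melanocyte RNA moved with this comparison. The summed level of the 6 fibroblast markers was 219.6 and 2326 CPM of raw UMIs in Lyve1/Folr2-positive macrophages, with Pdgfra at 0 in library 1, against 3300 and 4017 CPM in those low for both. The summed level of 5 melanocyte markers was 64.6 and 106.5 CPM in positive cells, with Sox10 at 0 in both libraries, and 1238 and 1184 CPM in cells low for both. In the mural cell list, Rgs5 alone gave 1365 CPM in positive cells of library 1, against 118 CPM in cells low for both. Without cells that held 5 or more UMIs of fibroblast or melanocyte markers, 470 genes were higher and 505 lower, of which 349 and 279 were also called with those cells in. The perivascular list without Mrc1 then had 14 of 19 genes higher. Thbs4, Omd and Cilp2, matrix genes of fibroblasts, were among the 10 that were lower by most.

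MHC class II-high macrophages differed from those low for both in far fewer genes. Of 9399 genes tested, 0.596% were higher (56 genes) and 0.553% were lower (52 genes). Without the library block 3 genes were higher and none was lower by edgeR, with 213 genes lower at an unadjusted p under 0.05, and DESeq2 with the block called 20 higher and 13 lower. The genes of the MHC class II list that did not define the state followed it: 4 of 5 tested rose, with a median log2 fold change of 2.73, beside -0.01 over all genes. The state was cut on genes of the same pathway in the same cells, so this direction is no independent evidence. Cd74 had 16007 and 10841 CPM in MHC class II-high macrophages, against 1836 and 1349 CPM in those low for both (log2 3.06, SE 0.09, edgeR adjusted p = 2.5e-10). Ciita had 68.5 and 71.0 CPM in MHC class II-high cells and 5.43 and 9.27 CPM in cells low for both (log2 3.13, SE 0.27, edgeR adjusted p = 9.4e-05), and no UMI in the 23 and 48 Lyve1/Folr2-positive cells low in MHC class II. H2-DMb1, whose promoter is printed above, had 242 and 172 CPM in MHC class II-high cells, against 36.4 and 25.6 CPM, and H2-DMa had 292 and 245 CPM, against 115 and 81.5 CPM. H2-Ob did not pass the test. H2-Aa, which chose the cells, had 5509 and 4044 CPM in MHC class II-high cells, against 233 and 216 CPM.

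Several genes known from dendritic cells or monocytes rose with MHC class II. Ccr2, the receptor by which monocytes leave the blood, had 19.7 and 17.7 CPM in MHC class II-high macrophages, against 3.1 and 1.91 CPM in those low for both (log2 2.98, SE 0.42, edgeR adjusted p = 0.006). It was found in 8 of 235 and 14 of 526 MHC class II-high cells, so few cells carried it at this depth. Cd207, the langerin of Langerhans cells and some dendritic cells, had 278 and 174 CPM in MHC class II-high cells and 51.2 and 64.6 CPM in cells low for both (log2 1.87, SE 0.23, edgeR adjusted p = 0.0058). Cytip, an adaptor that regulates adhesion of dendritic cells, had 106 and 75.1 CPM in MHC class II-high cells, against 12.4 and 15.0 CPM. Il2ra and Clec4b1, a chain of the interleukin 2 receptor and a lectin of dendritic cells, rose by log2 2.79 and 1.58. Il7r, a cytokine receptor of lymphocytes and some macrophages, had 231 and 153 CPM in MHC class II-high cells and 42.6 and 52.9 CPM in cells low for both, and was not called without cells of fibroblast or melanocyte markers (log2 1.60). The 9 dendritic cell markers summed to 129 and 74.0 CPM of raw UMIs in MHC class II-high macrophages, against 51.5 and 62.0 CPM in cells low for both. In the gated dendritic cells they summed to 1114 and 1323 CPM. The 8 monocyte markers summed to 54.0 and 78.98 CPM of raw UMIs in MHC class II-high macrophages, against 47.2 and 126.9 CPM in cells low for both. Ccr2 was the 1 called of the 4 monocyte markers tested (median log2 fold change -0.50), and Cd209a the 1 called of the 4 dendritic cell markers tested.

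Chemokine and costimulatory genes gave a small further set. Of 23 chemokines and their receptors 6 rose and none fell (median log2 fold change 0.42), among them Ccr2 and the dendritic cell chemokine Ccl22 with 39.4 and 35.3 CPM in MHC class II-high macrophages, against 9.30 and 12.5 CPM, a call lost without cells of fibroblast or melanocyte markers. Of these chemokine genes 2 were higher and none was lower without Scrublet doublets, 2 were higher and none was lower with DESeq2, and 3 were higher and 1 lower without cells of fibroblast or melanocyte markers. Of 10 genes of costimulation and antigen uptake, Cd40 and the Fc receptor Fcgr4 rose, with Fcgr4 at 53.2 and 54.1 CPM in MHC class II-high cells and 21.7 and 18.8 CPM in cells low for both. Il12b was the 1 called of 14 cytokines, with 162 and 198 CPM in MHC class II-high cells, against 41.9 and 46.1 CPM (log2 2.03, SE 0.17), and was not called without Scrublet doublets, without cells of fibroblast or melanocyte markers or with equal cell numbers. Il1b had 1993 and 1494 CPM in MHC class II-high cells and 832 and 471 CPM in cells low for both, and did not pass the test (log2 1.45, SE 0.32, edgeR adjusted p = 0.21). Mrc1 had 336 and 589 CPM in MHC class II-high cells, against 489 and 659 CPM. Of the perivascular list without Mrc1, 1 of 19 genes, Mgl2, rose and none fell. In a fit of the MHC class II split alone, whose control holds the Lyve1/Folr2-positive cells, 1 of 21 genes of that list, Lyve1 and Folr2 included, was higher and 16 were lower (median log2 fold change -1.02). Over all 10149 genes tested in that fit, 205 were higher and 270 lower, with a median of -0.01.

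Genes known from other cells were among those lower in MHC class II-high macrophages. The leading 10 included Hbb-bt, a haemoglobin chain, Gngt1, a transducin chain of rods, and the matrix or stromal genes Angptl7, Thbs4, Apod and Cilp2. Fibroblast markers summed to 1125 and 1856 CPM of raw UMIs in MHC class II-high cells, against 3300 and 4017 CPM in cells low for both, and 8.51% and 9.89% of MHC class II-high cells held 5 or more fibroblast UMIs, against 14.8% and 24.4%. Scrublet marked 3.40% and 10.1% of MHC class II-high cells and 7.81% and 18.4% of cells low for both. Without cells of fibroblast or melanocyte markers 33 genes were higher and 9 lower, and 26 of the 56 and 4 of the 52 calls were shared. Klf4 had 55.2 and 77 CPM in MHC class II-high cells and 138 and 187 CPM in cells low for both (log2 -1.30, SE 0.20), and was not called without those cells (log2 fold change of Klf4 -0.62).

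**Figure D4:**
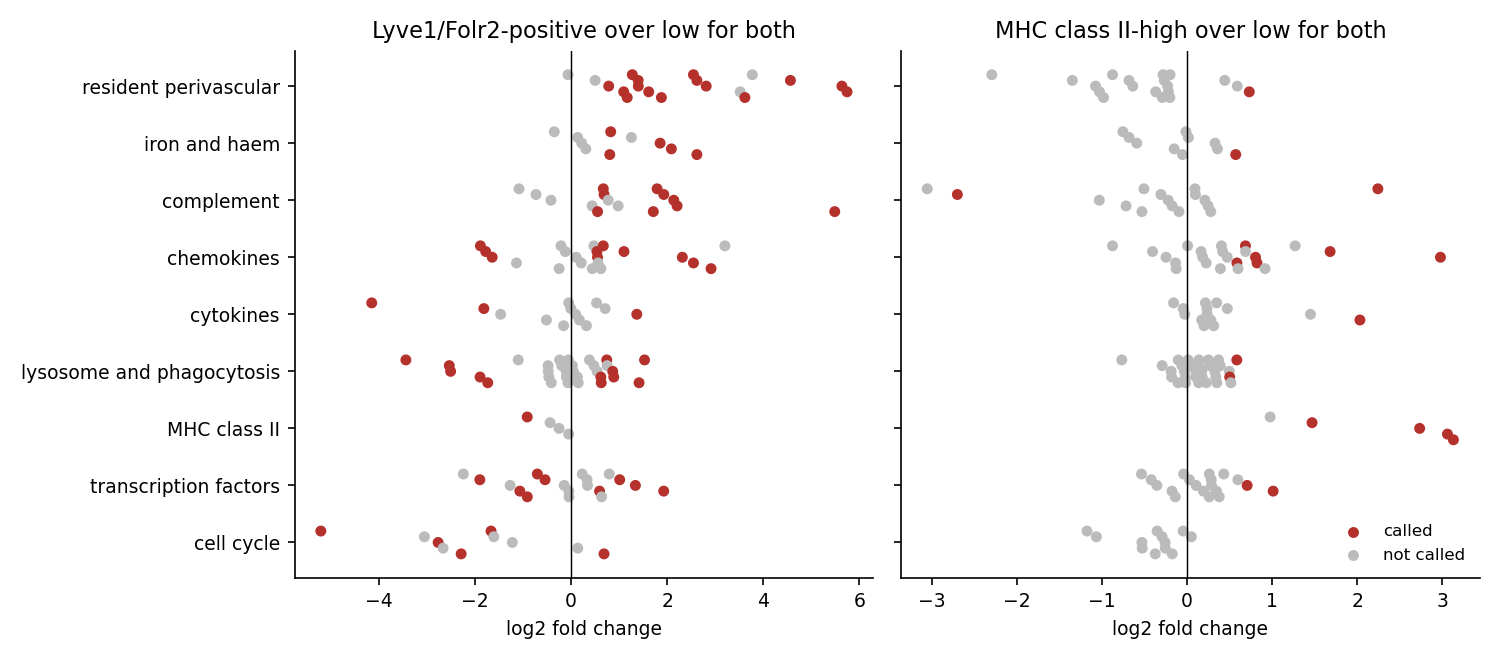
Log2 fold changes of the tested genes of 9 lists, Lyve1/Folr2-positive (left) and MHC class II-high macrophages (right) over macrophages low for both. Each point is a gene, red where called, and genes with no UMI in a state are left out. The genes of the macrophage rule are left out too. In the perivascular list 15 of 19 genes were called higher on the left, and in the MHC class II list 4 of 5 on the right.

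Macrophages were also set against dendritic cells, another class of antigen-presenting cells. Dendritic cells were gated on at least 2 UMIs of Flt3, Xcr1, Clec9a, Cd209a and Ccr7 with C1q under 5 UMIs, which gave 38 and 71 cells with a median of 12786 and 12598 UMIs. Genes of either gate were not tested, and both gates were built from markers in the same cells. In a fit of 10 sums of 5 classes with library as a block, 12.4% of 9693 genes were higher in macrophages and 9.62% lower (1201 and 932 genes, against 737 and 595 without the block). MHC class II genes were lower in macrophages as a group, with 9 of 11 lower and none higher (median log2 fold change -1.95, beside 0.09 over all genes). H2-Oa had 2.18 and 4.28 CPM in macrophages, against 273 and 131 CPM in dendritic cells (log2 -5.56, SE 0.34, edgeR adjusted p = 8.9e-11). The classical chains differed by less. H2-Ab1 had 2884 and 2347 CPM in macrophages and 11657 and 8739 CPM in dendritic cells (log2 -1.95, SE 0.65, edgeR adjusted p = 0.031), a call lost without Scrublet doublets, without cells of fibroblast or melanocyte markers and in a fit of the 3 myeloid classes. Cd74 had 11104 and 7181 CPM in macrophages, against 36162 and 20261 CPM in dendritic cells, and did not pass (log2 -1.59, SE 0.79, edgeR adjusted p = 0.16). H2-Aa, with an adjusted p from edgeR of 0.061, did not pass either.

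Signals and scavenging set macrophages above dendritic cells. Of 14 cytokines 8 were higher and none lower. Il10 had 593 and 415 CPM in macrophages, against 0 and 2.47 CPM in dendritic cells (log2 8.21, SE 0.59, edgeR adjusted p = 1.5e-09). Tnf had 1178 and 1195 CPM in macrophages and 21.0 and 45.8 CPM in dendritic cells (log2 5.07, SE 0.39). Il1b had 1595 and 1099.7 CPM in macrophages, against 3937 and 2193 CPM in dendritic cells, and did not pass the test (edgeR adjusted p = 0.17). Of 23 chemokines and receptors 13 were higher and 2 lower: Ccl3 had 2558 and 1525 CPM in macrophages and 6.0 and 2.47 CPM in dendritic cells, and Ccl22 had 28.6 and 26.4 CPM, against 369 and 255 CPM. Ccl8 and Folr2 had no UMI in dendritic cells, and were at least 23.5-fold and 30.4-fold higher in macrophages. Of 31 lysosome and phagocytosis genes 20 were higher and none lower (median log2 fold change 1.54). Trem2, a lipid receptor, had 242 and 154 CPM in macrophages, against 6.0 and 0 CPM in dendritic cells (log2 6.70, SE 0.55), and Apoe had 14791 and 10692 CPM, against 534 and 289 CPM. Of the perivascular list 16 of 20 were higher, with a median of 5.52 as fitted and 3.56 with the 6 genes at 0 in dendritic cells set at their bound.

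**Figure D5:**
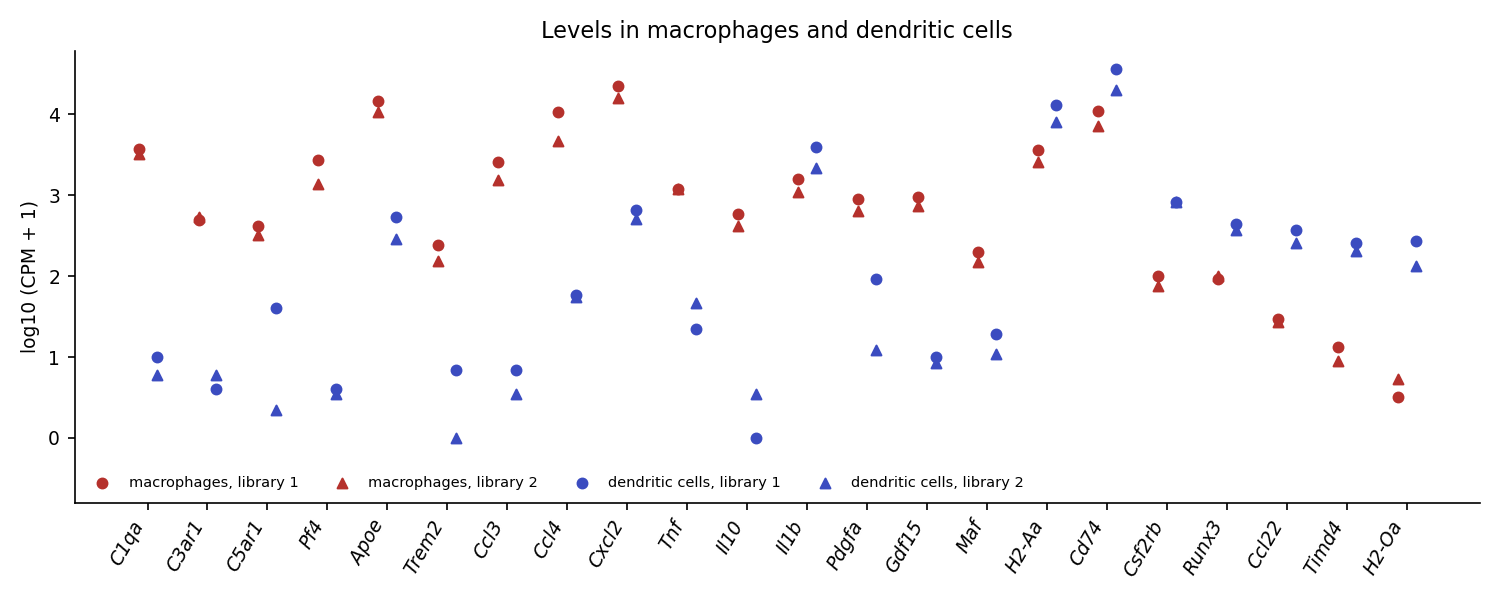
Levels of selected genes in macrophages (red) and dendritic cells (blue), as log10 of CPM plus 1, circles for library 1 and triangles for library 2. Pf4, Ccl3, Tnf and Il10 were higher in macrophages in both libraries, and Csf2rb, Ccl22, Timd4 and H2-Oa were lower. C1qa chose the cells.

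Timd4 ran the other way from its list. It had 12.5 and 7.89 CPM in macrophages as a whole, against 255 and 203 CPM in dendritic cells (log2 -4.56, SE 0.42, edgeR adjusted p = 4.4e-05), although it was raised in the Lyve1/Folr2-positive macrophages. Growth factor genes were higher in macrophages in 10 of 15 cases and lower in 1, with Pdgfa, a mitogen of mesenchymal cells, at 886 and 644 CPM in macrophages and 90 and 11.1 CPM in dendritic cells. Gdf15, a stress-induced member of the TGF-beta family, had 949 and 735 CPM in macrophages and 9.0 and 7.42 CPM in dendritic cells. Of 7 receptors of growth factors and cytokines 3 were lower and 1 higher. Csf2rb, the shared chain of the GM-CSF, IL-3 and IL-5 receptors, had 98.7 and 75.3 CPM in macrophages, against 813 and 829 CPM in dendritic cells. Of 19 transcription factors 8 were higher, including Maf and Cebpa, and 6 lower, including Zbtb46 and Batf3, which are factors of conventional dendritic cells. Zbtb46 had 2.49 and 3.04 CPM in macrophages, against 27.0 and 56.9 CPM in dendritic cells. Of 15 complement genes tested against dendritic cells 8 were higher in macrophages and 2 lower. The integrin chain Itgax was lower (log2 -2.51), and the related chain Itgam (-0.08) and their shared partner Itgb2 (-0.40) were not called. C3ar1 was higher, at 498 and 538 CPM in macrophages, against 3.0 and 4.95 CPM in dendritic cells, and so was C5ar1, at 414 and 320.5 CPM, against 39 and 1.24 CPM.

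Markers of related myeloid cells gave a mixed picture within the macrophages. Fcrls, an Fc receptor-like protein used as a microglia marker, had 320 and 286 CPM in macrophages and 0 and 11.1 CPM in dendritic cells. The defining microglia genes were low, with P2ry12 at 23.7 and 17.4 CPM in macrophages and Tmem119 at 15.3 and 20.9 CPM. Tmem119 had 19.2 and 16.7 CPM in all other cells, so its direction differed between the libraries. The 8 monocyte markers summed to 51.6 and 97.7 CPM of raw UMIs, with Ly6c2 at 0.934 and 1.01 CPM in macrophages and 12 and 30.9 CPM in dendritic cells. Neutrophil markers summed to 11 and 16.4 CPM in macrophages, against 97115 and 38556 CPM in the S100a8-S100a9 myeloid cells, of which there were 13 and 16.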

How the data were processed

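Single-cell RNA-seq libraries were made with 10x Chromium 3' v3.1 chemistry from 10000 loaded cells each, per the labels. The authors deposited raw counts of UMIs as sparse matrices. These come from Cell Ranger, with version 4 in the file headers and version 2.1.1 with genome mm10 in the submitters' processing notes. The gene annotation was not given in the sources. They list 1959894 and 1856693 barcodes, so the cell filter was applied here.

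The macrophage rule, the gene lists and the comparisons were chosen with earlier results of these data known. Counts were summed per library and class or state and tested with edgeR 4.0.16 (quasi-likelihood, TMM, filterByExpr, robust, R 4.3.3), with Benjamini-Hochberg adjustment over all genes tested. Library was a block, because both members of a comparison come from the same pooled mice. CPM values are scaled by TMM unless called raw. Genes of the macrophage rule were in the fits but are given as values only. Named genes were the rule genes, all MHC class II genes, of each list the 3 most abundant and up to 3 called in each direction, and the 10 genes with the largest change in each direction at 20 CPM or more. Other members of the lists, and the markers of other cells, are named beside their counts and were picked after their values were seen. The planned fit over 4 states ran on 3, since the state with both traits had under 10 cells. The tests were checked on simulated data. Intervals and floors cover counting error only. Alternatives included RLE scaling, DESeq2 1.42.0, no filter, no block, other gates, limits and seeds, and, added after seeing the data, equal cell numbers per state. Doublets were called with Scrublet in scanpy 1.11.5. Promoters are from RefSeq and gene positions from GENCODE, both on GRCm38. Some results are not reported here.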

Additional observations from a re-analysis of the deposited data

How the results depend on the processing

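Counts of called genes are given as higher and lower. For the Lyve1/Folr2 comparison (438 and 367) they came to 51 and 57 without the library block, 325 and 210 with DESeq2, 249 higher with positivity at 2 UMIs, 642 lower with no filter on low counts, and 210 and 162 with equal cell numbers. For the MHC class II comparison (56 and 52) they came to 3 and 0 without the block, 20 and 13 with DESeq2, 165 and 196 with no filter, 24 and 20 without Scrublet doublets, 33 and 9 without cells of fibroblast or melanocyte markers, and 205 and 270 in a fit of this split alone. The count of 0 is from edgeR, which had 213 such genes at an unadjusted p under 0.05. Its lower genes numbered 161 with thinning to 1000 UMIs, where the MHC class II limit was also lowered to 3 UMIs, as in every value at 1000 UMIs here, 25 with another seed, and 84 and 107 with limits of 3 and 10 UMIs. For dendritic cells (1201 and 932) the counts were 737 and 595 without the block. The Lyve1/Folr2-positive share (6.71%) was 7.09% without marker-bearing cells, 5.82% at 1000 UMIs, 7.05% with another seed and 3.31% at 2 UMIs. The MHC class II-high share (62.1%) was 63.5% without Scrublet doublets, 65.1% without marker-bearing cells, 58.5% at 1000 UMIs, and 69.3% and 51.6% with limits of 3 and 10 UMIs. In the Lyve1/Folr2 comparison the log2 fold change changed sign for Car6 at 1000 UMIs (0.38), Ccl4 with another seed (-0.14) and at 2 UMIs (-0.44), Cxcl2 at 2 UMIs (-0.16), Il6 without Scrublet doublets (-0.0393) and at 1000 UMIs (-0.0296), and Inhba with another seed (0.11). The cause was not tested, except that fewer cells enter some fits. Of 198 called results on named genes outside the macrophage rule, 94 kept their call under every alternative that gave a test, and leaving out a library gave values only.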
